A study of Leptinotarsa decemlineata with 61 samples.

Results

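In the Colorado potato beetle, Leptinotarsa decemlineata, 209 of the 15578 genes in the expression table (1.34%) were high in fertilized eggs, at least 4-fold lower in each later whole-body stage and low in every dissected tissue. The genes were chosen on their group means in TPM, read pairs per gene scaled to gene length and library size. A gene was kept when its egg mean was at least 20 TPM and at least 4 times its mean in L1, L2 and L3 larvae each, and when its mean in each of 12 dissected groups was under 20 TPM and more than 4-fold below the egg mean. The contrasts of eggs with larvae and of eggs with tissues made this choice, so they are given as a description and were not tested. The 209 genes are 4.01% of the 5206 genes with an egg mean of at least 20 TPM. Another 310 genes met the conditions for eggs and larvae and failed only those for dissected tissues. The genes were low rather than absent in tissues, because the rule admits levels below 20 TPM, and 74 of the 209 stayed at or under 1 TPM in all 12 dissected groups.

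All samples came from untreated, wild-type beetles of the E06 strain, which originated in Spain, and the libraries were enriched for polyadenylated RNA. Each egg library was made from a pool of 5 fertilized eggs and each L1, L2 or L3 library from a pool of 3 whole larvae, with 3 libraries per stage. Tissues came from single L4 larvae on day 19 after egg laying or from single adults 7 days after emergence, with 47 libraries of aedeagus, genital ducts, testes, ovaries, hindgut, midgut, fat body, malpighian tubules and hemolymph. The labels do not give the age of the eggs within embryonic development. Aedeagus, genital ducts and testes were taken from adult males, ovaries from adult females, hemolymph from L4 larvae, malpighian tubules from adults of both sexes, and the other tissues from L4 larvae and adults of both sexes. White and yellow L4 fat body were joined into 1 group, as were adult females and males. The p-values below measure the spread between these pools or individuals.

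An insect embryo begins with RNA that the ovary loads into the egg and then takes over with transcription from its own genome. In this later phase the body axes and segments are laid down, extraembryonic membranes cover the embryo, and towards hatching the larval cuticle is secreted. Genes used in this window, or in organs outside a dissected set such as epidermis, muscle and nervous system, can be abundant in whole eggs and low in each dissected tissue. Whole larvae include such organs, and the rule also required low levels in L1, L2 and L3 relative to the egg. In bulk samples, fewer cells of a type and less RNA per cell cannot be told apart.

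The identifiers of the table carry no gene names, and 0 of the 15578 matched the RefSeq gene table of this species, so the genes are described by identifier, position and structure. Roles and sequences are not given for them, and the labelled tissues were not checked against marker genes. For 59 of 61 libraries the titles and the tissue entries in the labels disagree on the stage or tissue, and the groups follow the titles, which match the library names. By Pearson correlation of log2(TPM + 1) over all genes, each of the 59 libraries used was closest to another library of its own group under the titles. Across the 59 libraries used, the recovered depth was 9913155 to 18579970 read pairs per library (median 15046253). At the median length of the 209 genes, 969 bp, 1 read pair was worth 0.0622 to 0.152 TPM, so levels under 0.5 TPM rest on a handful of read pairs. Among 59 pairs of replicates, 0 were identical. For these genes L2 replicate 4 stood apart from the other L2 libraries, and the counts and named differences that rest on L2 are given with and without it.

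The 209 genes summed to 114376, 66387 and 99327 TPM in egg replicates 1, 2 and 4, a mean of 93363 ± 24544 TPM (SD, n = 3) or 9.34% of all TPM in the egg. The 12 highest genes carried 54.0% of that sum. Egg means ran between 20.1 and 7681 TPM with a median of 121 TPM, and 118 genes were at 100 TPM or more and 18 at 1000 TPM or more. The median ratio of the egg mean to the highest larval mean was 13.9, and that to the highest dissected mean was 61.9. TPM is a share of each library, and after rescaling every library by median-of-ratios factors, which equalise the typical gene between libraries, the egg sum was 60845.

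**Figure D1:**
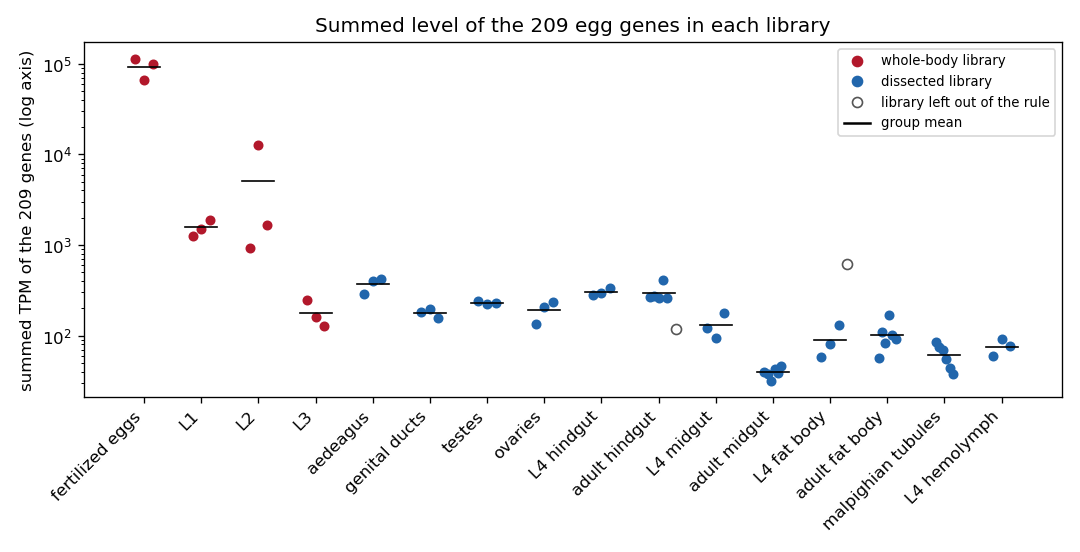
Summed TPM of the 209 egg genes in each library on a log axis, with whole-body libraries in red, dissected libraries in blue, group means as black lines and the 2 libraries left out of the rule as open circles. The 3 egg libraries lie between 66387 and 114376 TPM, L2 replicate 4 lies at 12606 TPM above the other larvae, and the dissected libraries used in the rule reach at most 425 TPM.

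The highest egg means belonged to LdNA_30596 (chromosome 16, 9340517 to 9341431, minus strand, 2 exons), LdNA_30629 (chromosome 16, 9773231 to 9774356, minus strand, 1 exon) and LdNA_817 (chromosome 1, 8297926 to 8308745, minus strand, 3 exons). LdNA_30596 measured 6316, 5756 and 10972 TPM in egg replicates 1, 2 and 4, with means of 2.90 TPM in L1 and 0.996 TPM in L3. LdNA_30629 measured 6524, 6001 and 10057 TPM in the same libraries, with means of 1.24 TPM in L1 and 0.696 TPM in L3. Both genes lie in the same part of chromosome 16, had similar profiles and were highest in egg replicate 4. LdNA_817, with 240 bp of counted sequence in an interval of about 11 kb, measured 10656, 2430.1 and 5823 TPM in the egg libraries. It reached 32.6 ± 14.8 TPM in L1 (SD, n = 3) and was at 0 in all L3 libraries.

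Among the next highest genes, LdNA_30634 (chromosome 16, 9953399 to 9968063) measured 3794, 3671 and 7223 TPM in egg replicates 1, 2 and 4. LdNA_31588 (chromosome 17, 695542 to 697820) was the steadiest of the 12, with 3422, 3383 and 3818 TPM, a coefficient of variation of 6.80%. LdNA_16748 (chromosome 8, 25027448 to 25029142) measured 2453, 2818 and 3770.2 TPM. Each of these genes differed by less than 2-fold between egg libraries. A different pattern was seen in LdNA_29707 and LdNA_29705, both on chromosome 15 (23174804 to 23232947), and in LdNA_23868 (chromosome 12, 18647083 to 18649372). LdNA_29707 measured 10192, 578 and 3689 TPM in egg replicates 1, 2 and 4, LdNA_29705 measured 6051, 485 and 1282 TPM, and LdNA_23868 measured 5551, 161 and 1661 TPM. All of these were highest in replicate 1, lowest in replicate 2 and intermediate in replicate 4. The opposite order was seen in LdNA_30827 (chromosome 16, 16162291 to 16180236), with 1345, 3833 and 2707 TPM. LdNA_14017 (chromosome 7, 1817128 to 1839399) measured 1755, 2892 and 3702 TPM, and LdNA_9362 (chromosome 4, 57899996 to 57919964) measured 1275, 2511 and 2754 TPM.

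**Figure D2:**
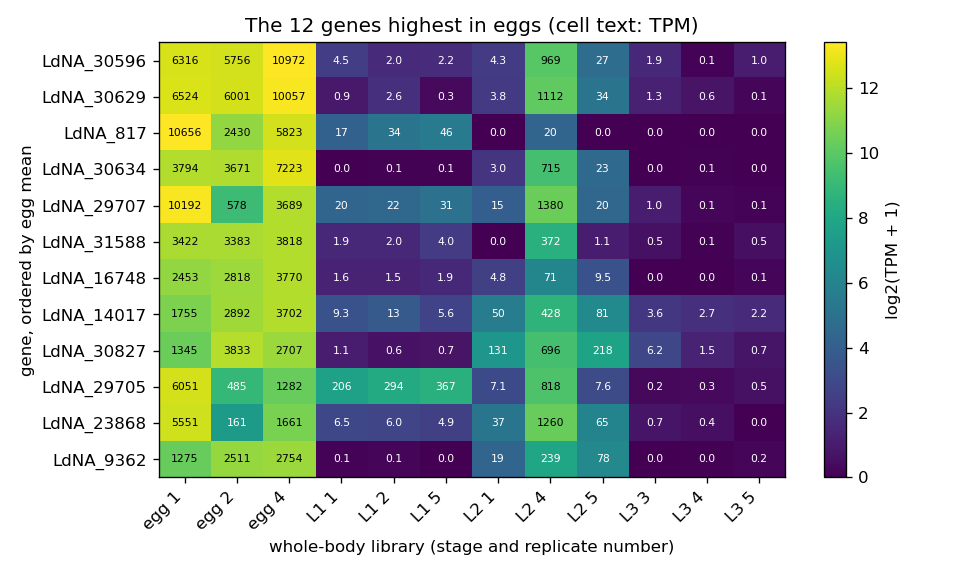
TPM of the 12 genes highest in eggs in the 12 whole-body libraries, with log2(TPM + 1) as colour and TPM as text. LdNA_29707, LdNA_29705 and LdNA_23868 are highest in egg replicate 1 and lowest in egg replicate 2, and L2 replicate 4 is above the other L2 libraries for all 12 genes.

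The egg libraries differed more in these genes than in other genes of the egg. The same libraries chose the genes, and a gene high in 1 of them can pass on its mean. The spread is therefore a description and was not tested. The median ratio of the highest to the lowest egg library, on TPM + 1, was 2.52 in the 209 genes, against 1.52 in the 310 egg genes that are also present in tissues and 1.34 in all 5206 genes with an egg mean of at least 20 TPM. The ratio was 10 or more in 47 of the 209 genes (22.5%), against 2.86% of the 5206. Egg replicate 1 was the highest library in 80 of the 209 genes, replicate 2 in 58 and replicate 4 in 71. Over the 5206 genes these shares were 13.9%, 66.3% and 19.9%, and after median-of-ratios rescaling they were 42.5%, 32% and 25.5%, with 96, 44 and 69 of the 209 genes, so the order of the egg libraries for most egg genes depends on the scale.

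In 59 of the 209 genes (28.2%) egg replicate 1 was at least 4 times egg replicate 2, against 4.30% of the 5206 genes, and in 61 after rescaling. Their medians were 458 TPM in egg replicate 1, 7.69 TPM in replicate 2 and 53.3 TPM in replicate 4. Replicate 4 lay between the others in 57 of these 59 genes, and 14 of the 59 were at or under 1 TPM in replicate 2. The same genes held most of the L1 signal. An L1 mean above 5 TPM was found in 25 of the 59 (42.4%) and in 13 of the other 150 genes (8.67%), and all 16 genes with an L1 mean above 20 TPM were among the 59. Their sum was 1051, 1251 and 1672 TPM in L1 replicates 1, 2 and 5, against 222, 263 and 237 TPM for the other 150 genes. The split rests on the egg libraries that chose the genes and on a threshold set after their values were seen, so it is a description with no test.

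**Figure D3:**
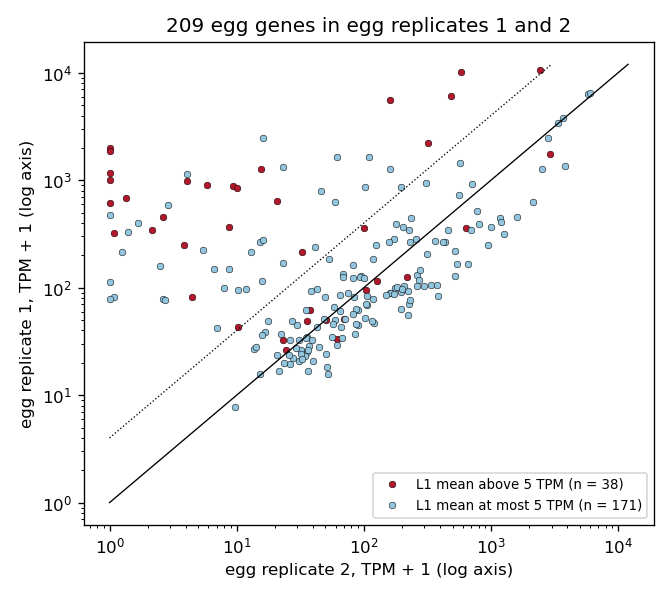
Each of the 209 genes by its TPM + 1 in egg replicate 2 (horizontal) and egg replicate 1 (vertical), both on log axes, with equality as a solid line, 4-fold as a dotted line and genes with an L1 mean above 5 TPM in red. Above the dotted line lie 59 genes, 25 of them red, and below it lie 150, 13 of them red.

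The widest relative spread was in LdNA_11000 (chromosome 5, 37470595 to 37476544), with 401 TPM in egg replicate 1, 0.689 in replicate 2 and 1.28 in replicate 4. LdNA_7813 (chromosome 4, 7307173 to 7310785) measured 458, 1.62 and 2.49 TPM, and LdNA_34314 (chromosome 18, 25794436 to 25795068) measured 77.2, 0 and 1.06 TPM. For these genes the egg mean is carried by 1 library of 5 eggs. The narrowest spread was in genes of low level: LdNA_30522 (chromosome 16, 7079468 to 7096321) measured 31.5, 29.7 and 29.3 TPM, LdNA_34234 (chromosome 18, 22979163 to 22981790) 26.3, 28.3 and 29.0 TPM, and LdNA_23582 (chromosome 12, 12760613 to 12777701) 22.8, 24.7 and 22.5 TPM.

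Choosing the genes again without a given egg library and reading them in that library gave a view of the egg level that the choice had not used. The larval and tissue means in the rule were those that chose the genes, so only the egg value was new. Of 181 genes chosen without replicate 1, 141 (77.9%) met the rule in replicate 1 alone. Of 230 chosen without replicate 2, 137 (59.6%) met it in replicate 2, and 21 were at or under 1 TPM there. Of 217 chosen without replicate 4, 167 (77.0%) met it in replicate 4. At the limits of the rule, LdNA_34084 was just inside with an egg mean of 20.1 TPM and LdNA_27591 just outside with 19.9. LdNA_27598 was inside at 4.02 times its highest larval mean and LdNA_34271 outside at 3.98. For the dissected maximum, LdNA_14017 was inside at 19.5 TPM in malpighian tubules and LdNA_22936 outside at 22.6 TPM. For the ratio to the highest tissue, LdNA_21593 was inside at 4.0 and LdNA_8928 outside at 3.90.

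Part of the genes were neighbours. Runs of members with gaps of at most 50 kb numbered 29 and held 80 of the 209 genes (38.3%), and 12 of these runs had 3 or more genes. Such runs were not counted for other sets of genes, so the share does not show whether neighbourhood is particular to the 209. Chromosome 16 held 24 members, or 3.29 per 100 of its genes, and chromosome 14 held 21, or 2.90 per 100, against 1.34 per 100 in the whole table and 0.410 on chromosome 17. On chromosome 16, 18 of the 30 genes between 8585441 and 10193420 were members, 17 of them on the minus strand. This stretch was chosen after its values were seen. Its genes summed to 20920 TPM in egg replicate 1, 25710 in replicate 2 and 38623 in replicate 4, a mean that is 30.4% of the sum of all 209 genes, and none had an L1 mean above 3.12 TPM.

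Of 4 runs with 5 members, the 3 with the highest egg sums had different profiles over the whole-body libraries. The run on chromosome 16 (8585441 to 8660225, LdNA_30559, LdNA_30560, LdNA_30563, LdNA_30564 and LdNA_30565) lies wholly on the minus strand, with 3 or 4 exons and 603 to 753 bp each. LdNA_30559 measured 628, 2129.8 and 1635 TPM in egg replicates 1, 2 and 4, and LdNA_30560 measured 315, 1267 and 732 TPM. All 5 genes of this run were highest in egg replicate 2, and their L1 means were at most 2.34 TPM.

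The run on chromosome 14 between 19553276 and 19580205 (LdNA_28238, LdNA_28239, LdNA_28241, LdNA_28242 and LdNA_28243) had 2 exons and 255 to 261 bp per gene. LdNA_28239 measured 1984, 0 and 193 TPM in egg replicates 1, 2 and 4, then 137, 138 and 218 TPM in L1 replicates 1, 2 and 5. LdNA_28243 measured 1883, 0 and 171 TPM in eggs and 116, 111 and 217 TPM in L1. All 5 genes were highest in egg replicate 1, had 0 read pairs in egg replicate 2, where 3 read pairs would be worth 0.994 to 1.02 TPM, and kept L1 means of 47.3 to 164 TPM. Their L2 means were at most 5.98 TPM and their L3 means at most 0.290 TPM. Short neighbours of almost the same length can be near-identical copies, between which counting may split or lose reads, so the level of each of these 5 genes is uncertain.

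The other run on chromosome 14 (102663 to 216152) was mixed. LdNA_27592 measured 856, 195 and 1094 TPM, LdNA_27594 measured 387, 179 and 653 TPM, and LdNA_27595 measured 939.9, 305 and 1005 TPM in egg replicates 1, 2 and 4, and all 3 genes were at 0 in every L1 and L2 library. LdNA_27598 in the same run measured 683, 0.339 and 41.9 TPM in eggs and averaged 60.1 ± 13.4 TPM in L1 (SD, n = 3). LdNA_27602 measured 112, 0 and 10.1 TPM in eggs with an L1 mean of 0.775 TPM. Neighbourhood thus went with a like order of the egg libraries in the first 2 of these runs and not in this one. The remaining run with 5 members, on chromosome 11, was also mixed. It had 1, 2 and 2 genes highest in egg replicates 1, 2 and 4.

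**Figure D4:**
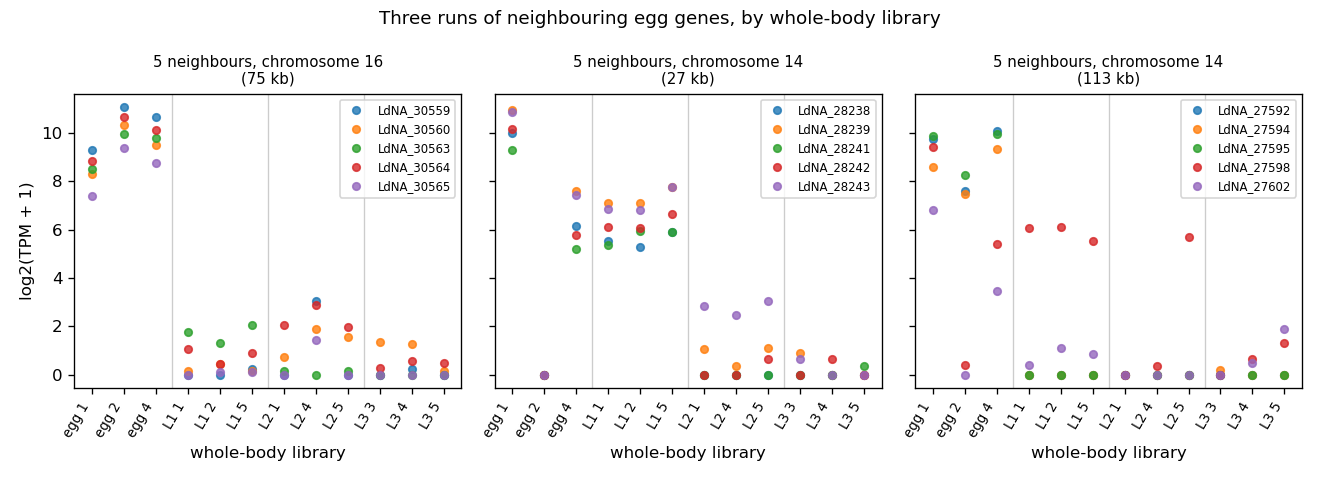
log2(TPM + 1) of the genes of 3 runs in the 12 whole-body libraries, 1 panel per run and 1 colour per gene, with grey lines between stages. The genes on chromosome 16 are highest in egg replicate 2 and near 0 in larvae, those of the shorter run on chromosome 14 are at 0 in egg replicate 2 and high in egg replicate 1 and in L1, and those of the longer run on chromosome 14 do not share an order of the egg libraries.

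In structure the 209 genes were shorter and had fewer exons than other egg genes. Their median counted length was 969 bp, against 1743 bp in the 310 egg genes also present in tissues, 1458 bp in the 5206 genes with an egg mean of at least 20 TPM and 1209 bp in the table. The median number of exons was 3, against 5 in the 5206 egg genes and 4 in the table. Genes with 2 or 3 exons made up 43.5% of the 209, against 25.9% of the 5206 and 29.3% of the table. Single-exon genes numbered 21 (10.0%), against 7.57% of the 5206 and 17.0% of the table. The 16 genes with L1 means above 20 TPM had a median length of 372 bp, and 14 of them had 2 exons. Among the 209, 18 overlapped another annotated gene, 12 of them on the opposite strand, and their values are uncertain because the libraries do not mark strand.

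The remaining signal in larvae was lowest in L3. The 209 genes summed to 1272, 1513 and 1909 TPM in L1 replicates 1, 2 and 5, to 917, 12606 and 1645 TPM in L2 replicates 1, 4 and 5, and to 249.5, 162 and 129 TPM in L3 replicates 3, 4 and 5. Means above 1 TPM were found for 103 genes in L1, 159 in L2 (128 without L2 replicate 4) and 48 in L3. LdNA_4590 was the only gene of the 209 with an L3 mean above 20 TPM and was chosen here after its values were seen, with 36.9, 18.7 and 9.03 TPM in L3 replicates 3, 4 and 5. In L2 replicate 4, 120 of the 209 genes were above 5 TPM, against 40 in replicate 1 and 62 in replicate 5, and 154 were highest in replicate 4 of the 3 L2 libraries. In the table as a whole there were 93 genes that reached 20 TPM in L2 replicate 4 and at least 4 times both other L2 libraries. Of these, 81 had an egg mean of at least 20 TPM and 38 were among the 209 genes (18.2% of them, against 0.597% of the table). The level in L2 replicate 4 ranged over 0.121% to 51.3% of the egg mean among the 18 genes with egg means of at least 1000 TPM. LdNA_817 stood at the low end of the 12 highest with 20 TPM (0.317% of its egg mean) and LdNA_23868 at the high end with 1260.3 TPM (51.3%). The source of these levels was not tested.

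The larval stages were then compared with each other. The rule set a limit on each larval mean relative to the egg, so genes high in any larval stage had been removed, and leaving out L2 replicate 4 alone would have admitted 236 genes. The comparisons below hold for the genes that remained and are not independent of the choice. The fit was limma on log2(TPM + 1) over 9 libraries, with adjusted p below 0.05 over 11409 genes, and 162 of the 209 genes passed its filter, which kept genes above 1 TPM in 2 or more libraries. A gene that passes through the only group where it is high had to differ, so each count is also given with no filter. In L3 against L1, 1 of the 162 genes was higher (9.75% of all tested genes) and 56 were lower (34.8% of all tested genes), with a median difference of -0.56 against -0.33 over all tested genes. The share of lower genes, 34.6%, was close to the background. With no filter, 0 of 206 genes were higher (against 7.56% of all genes) and 55 lower (26.7%, against 27.9%). The median was then -0.33 against -0.19 over all genes. After rescaling, the median of all genes moved to 0.0056 and that of the 162 genes to -0.41, with 3 higher and 51 lower, against 22.3% higher and 22.0% lower among all genes. The largest falls were in genes that were high in L1. LdNA_29705 measured 0.212, 0.275 and 0.516 TPM in L3, against 206, 294 and 367 TPM in L1, a log2 difference of -7.73 (SE 1.53, limma adjusted p = 0.00361). LdNA_28239 averaged 0.290 ± 0.502 TPM in L3, against 164 ± 46.3 TPM in L1 (SD), a log2 difference of -7.03 (SE 0.33, limma adjusted p = 4.85e-06), and LdNA_28243 averaged 0.193 ± 0.335 TPM in L3, against 148 ± 59.7 TPM in L1. For these genes the L3 and L1 values did not overlap. LdNA_30582 on chromosome 16 was the gene that rose, with 3.35, 2.66 and 1.11 TPM in L3, against 0, 0.288 and 0 TPM in L1 (log2 difference 1.57, SE 0.53, limma adjusted p = 0.0412), and it lost the call in 8 of 15 other settings.

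In L2 against L1, 50 of the 162 genes were higher (5.06% of all tested genes) and 28 were lower (5.68%), with a median difference of 1.01 against 0.10 over all tested genes. With no filter, 49 of 206 genes were higher (23.8%, against 3.92% of all genes) and 26 lower (12.6%, against 4.77%). The median was then 0.70 against 0.058. LdNA_30827 measured 131, 696 and 218 TPM in L2 replicates 1, 4 and 5, against 1.11, 0.589 and 0.651 TPM in L1 replicates 1, 2 and 5, a log2 difference of 7.27 (SE 0.67, limma adjusted p = 0.000343). LdNA_9362 measured 19.5, 239 and 78.4 TPM in L2, against at most 0.118 TPM in L1, and LdNA_18465 (chromosome 9, 14725109 to 14905076, 13 exons) measured 47.3, 228 and 80.1 TPM in L2, against at most 1.11 TPM in L1. These genes were high in each L2 library and higher again in replicate 4. In the other direction, LdNA_28239 averaged 0.824 ± 0.471 TPM in L2, against 164 ± 46.3 TPM in L1 (SD), with a log2 difference of -6.50 (SE 0.33, limma adjusted p = 1.17e-05). LdNA_28242 averaged 0.187 TPM in L2, against 78.3 TPM in L1. LdNA_28241 was at 0 in all 3 L2 libraries, against 40.5, 60.4 and 58.3 TPM in L1, which is at least 62.9-fold lower when 3 read pairs per library, 0.843 TPM, are taken as the floor.

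Without L2 replicate 4, 57 genes were higher and 31 lower in L2 than in L1, 49 and 24 of them shared with the calls above, and the median difference was 0.27. The log2 differences without it were 6.59 for LdNA_30827, 5.22 for LdNA_9362, 5.22 for LdNA_18465, -6.27 for LdNA_28239, -5.96 for LdNA_28242 and -5.73 for LdNA_28241. With the replicate number as a block, 16 were higher (9.88%, against 1.43% of all genes) and 16 lower (9.88%, against 2.03%). The count of higher genes fell to 34 of 162 without L1 replicate 1, 33 of 160 without L1 replicate 2 and 31 of 159 without L1 replicate 5. Over all tested genes these counts were 294 of 11348, 329 of 11308 and 250 of 11320. The split of the genes by egg replicates 1 and 2 was set after their values were seen, in the libraries that chose them. Its counts are a description with no test. Of the 59 genes with egg replicate 1 at least 4 times egg replicate 2, 44 were tested. Of these 44, 17 were lower and 4 higher in L2 than in L1, against 5.68% and 5.06% of all tested genes. Of the others 118 were tested, and 11 were lower and 46 higher. Without L2 replicate 4, 43 of the 59 genes were tested, with 22 lower and 4 higher, and 111 of the others, with 9 lower and 53 higher.

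In L3 against L2, 1 of the 162 genes was higher (9.11% of all tested genes) and 89 were lower (37.3%), with a median difference of -1.69 against -0.41 over all tested genes. Without L2 replicate 4 these counts were 2 and 83 of 154 genes, against 854 and 3511 of all 11323 tested genes. Of the lower genes 80 were shared, and the median was -1.12. With no filter, 1 of 206 genes was higher (0.485%, against 6.94% of all genes) and 84 were lower (40.8%, against 28.6%). The median was then -1.38 against -0.23 over all genes. After rescaling, the median of all genes was 0.038 and that of the 162 genes -1.47, with 1 higher and 74 lower, against 23.3% higher and 18.3% lower among all genes. LdNA_23868 measured 0.681, 0.442 and 0 TPM in L3, against 36.6, 1260.3 and 65.3 TPM in L2 (log2 difference -6.77, SE 1.10, limma adjusted p = 0.00133). LdNA_30827 measured 6.22, 1.51 and 0.690 TPM in L3 and 131, 696 and 218 TPM in L2 (log2 difference -6.44, SE 0.67, limma adjusted p = 0.000158). LdNA_9362 averaged 0.0713 TPM in L3 and 112 TPM in L2. Without L2 replicate 4 the log2 differences were -5.22 for LdNA_23868, -5.76 for LdNA_30827 and -5.24 for LdNA_9362. The gene called higher was LdNA_8186 (chromosome 4, 20031790 to 20032452, 1 exon), with 2.34, 1.95 and 0.699 TPM in L3, against 0, 0.540 and 0.216 TPM in L2 (limma adjusted p = 0.0304), and it lost the call in 5 of 14 other settings. Of the 50 genes higher in L2 than in L1, 49 were lower again in L3 than in L2 (55 of 57 without L2 replicate 4), and these comparisons share the L2 libraries. All 28 genes lower in L2 than in L1 were also lower in L3 than in L1 (31 of 31 without L2 replicate 4), comparisons that share the L1 libraries.

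**Figure D5:**
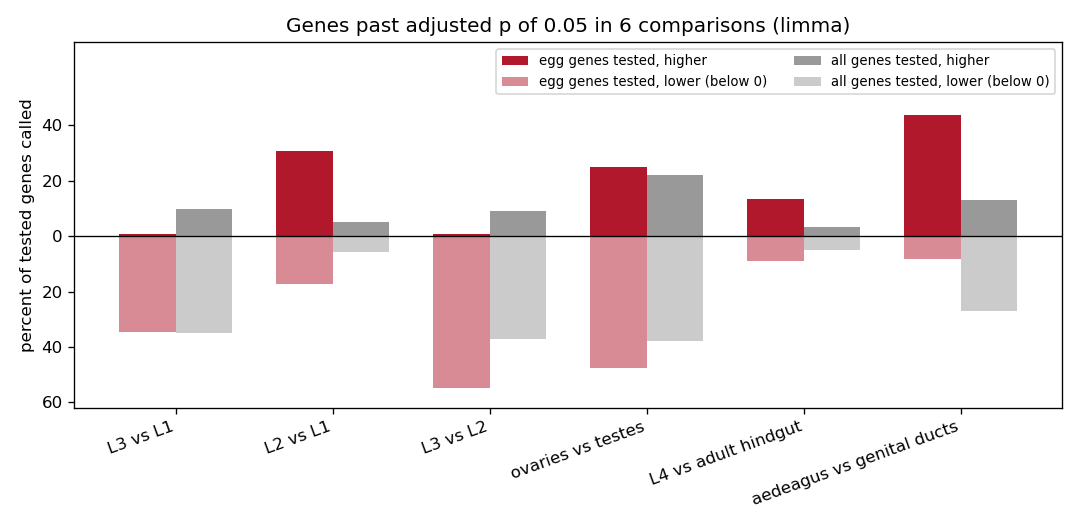
Percent of tested genes past an adjusted p of 0.05 in 6 limma comparisons, for the 209 egg genes as far as tested (red, left) and all tested genes (grey, right), with higher calls above 0 and lower calls in the paler shade below 0. In L2 against L1 30.9% of the tested egg genes are higher, against 5.06% of all genes, and in aedeagus against genital ducts 43.8%, against 13.0%. These shares are of genes that passed the filter, and with no filter they were 23.8% against 3.92%, and 18.0% against 9.70%.

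On deposited TPM, in the dissected tissues the sum of the 209 genes was highest in aedeagus, with 372 ± 75.4 TPM, then in L4 hindgut (304 ± 25.4), adult hindgut (295 ± 65.2), testes (232 ± 10.2), ovaries (192 ± 51.5) and genital ducts (178 ± 20.5, SD, n = 3 each and 5 in adult hindgut). It was 131 ± 42.8 TPM in L4 midgut, 102 ± 37.4 in adult fat body, 90.0 ± 36.5 in L4 fat body, 75.5 ± 15.8 in L4 hemolymph, 61 ± 18.4 in malpighian tubules and 39.5 ± 5.21 in adult midgut. The ranges of aedeagus and L4 hindgut overlapped, as did those of L4 hindgut and adult hindgut, those of testes and ovaries, and those of ovaries and genital ducts. The order depended on the scale. After rescaling, aedeagus, at 329 to 498, lay above L4 hindgut, at 217 to 251, without overlap, and adult fat body (mean 162) lay above genital ducts (156), testes (151) and ovaries (121). The tissue with the highest mean was testes for 45 genes, aedeagus for 39, L4 hindgut for 34, ovaries for 24 and adult hindgut for 22, and each other group for 10 or fewer. The same count is not given for other genes, and 74 of the 209 genes were at or under 1 TPM in every dissected group. No leaning of the genes to a tissue is therefore read from these ranks. Means above 10 TPM in some dissected group were found for 25 genes. LdNA_14017 was the highest of them, with 19.5 TPM in malpighian tubules, 17.6 in aedeagus and 12.7 in adult hindgut.

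Ovaries and testes were compared for the low signal that remained in them. The rule had removed genes with a mean of 20 TPM or more, or within 4-fold of the egg mean, in any dissected group. Genes abundant in ovaries could therefore not be among the 209. This comparison and the tissue comparisons that follow hold for the genes that remained and are not independent of the choice. In 80 of the 209 genes that could be tested among 12210, 20 were higher in ovaries (22.2% of all tested genes) and 38 were lower (37.8%), with a median difference of -0.59 against -0.34 over all tested genes. These were 25% and 47.5% of the 80 genes. With no filter, 24 of 202 were higher (11.9%, against 17.5% of all genes) and 49 lower (24.3%, against 31.6%). The median of the egg genes was then -0.12 against -0.19 over all genes. Their place relative to the background thus turned with the filter. LdNA_20724 (chromosome 10, 34765173 to 34779597), which measured 223, 4.41 and 38.5 TPM in eggs, had the highest ovary mean, with 29.0, 7.44 and 17.5 TPM in ovaries, against 0.577, 1.08 and 0 TPM in testes (log2 difference 3.49, SE 0.48, limma adjusted p = 0.000307). LdNA_23140 (chromosome 11, 48651289 to 48756827, overlapping LdNA_23142) averaged 8.80 ± 2.79 TPM in ovaries and 0.283 ± 0.0582 TPM in testes (log2 difference 2.89, SE 0.28, limma adjusted p = 3.15e-05). LdNA_849 (chromosome 1, 8831084 to 8841695), which overlaps LdNA_850 on the opposite strand, averaged 9.17 TPM in ovaries and 0.604 TPM in testes. LdNA_18465 had an ovary mean of 12.7 TPM, with 4.69, 18.3 and 14.9 TPM in replicates 1, 2 and 4, against 3.26 to 3.58 TPM in testes. Among genes lower in ovaries, LdNA_848 (chromosome 1, 8778073 to 8790821) measured 0.0892, 0 and 0.114 TPM in ovaries, against 7.21, 7.24 and 8.42 TPM in testes (log2 difference -3.01, SE 0.22, limma adjusted p = 5.46e-06). LdNA_18244 averaged 0.245 TPM in ovaries and 7.22 TPM in testes, and LdNA_8121 averaged 0.416 TPM in ovaries and 6.55 TPM in testes. For each of these genes the ovary and testis libraries did not overlap.

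In aedeagus against genital ducts, 32 of 73 tested genes were higher (13.0% of 10404 tested genes) and 6 were lower (27.0%), with a median difference of 0.88 against -0.23 over all tested genes. The other 136 genes did not pass the filter. With none applied, 32 of 178 were higher (18.0%, against 9.70% of all genes) and 5 lower (2.81%, against 18.5%). The median was then 0.16 against -0.065. With the replicate number as a block, 14 of 73 were higher (19.2%, against 6.73% of all genes) and 1 lower (1.37%, against 8.11%). After rescaling, these medians were 1.10 and 0.086, with 33 higher and 4 lower, against 19.2% higher and 14.5% lower among all genes. LdNA_8171 (chromosome 4, 19701275 to 19741914) measured 5.82, 8.00 and 12.0 TPM in aedeagus and 0 in all 3 libraries of genital ducts, which is at least 21.4-fold higher when 3 read pairs per library, 0.403 TPM, are taken as the floor. LdNA_10867 measured 5.58, 15.7 and 17.9 TPM in aedeagus, against 0.810, 1.42 and 0 TPM in genital ducts (log2 difference 2.96, SE 0.51, limma adjusted p = 0.00589). LdNA_31776 (chromosome 17, 4258985 to 4331999, 11 exons) measured 8.72, 21.3 and 21.2 TPM in aedeagus, against 0.833, 2.08 and 1.48 TPM in genital ducts (log2 difference 2.81, SE 0.39, limma adjusted p = 0.00265). In the other direction, LdNA_16746 (chromosome 8, 25010952 to 25012231) measured 3.90, 5.28 and 4.58 TPM in aedeagus, against 12.5, 26.2 and 12.6 TPM in genital ducts (log2 difference -1.62, SE 0.31, limma adjusted p = 0.00833). LdNA_30564 averaged 0.131 TPM in aedeagus and 2.89 TPM in genital ducts, and LdNA_18465 averaged 0.774 TPM in aedeagus and 3.18 TPM in genital ducts. The total of 38 calls was 22 without aedeagus replicate 5, 23 without genital ducts replicate 1 and 24 without genital ducts replicate 5.

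In L4 hindgut against adult hindgut, 12 of 89 tested genes were higher (3.22% of 11041 tested genes) and 8 were lower (5.14%), with a median difference of 0.09 against -0.10 over all tested genes. With no filter, 13 of 184 were higher (7.07%, against 2.48% of all genes) and 7 lower (3.80%, against 3.54%). The median was then -0.034 against -0.075. With the replicate number as a block, 1 of 89 was higher (1.12%, against 1.503% of all genes) and 3 lower (3.37%, against 1.89%). These calls are too few to give a balance of directions. The median with the block was 0.047 against -0.12 over all tested genes. A positive difference was found in 46 of the 89 genes both with and without the block. After rescaling, 13 were higher and 8 lower, against 4.88% higher and 4.05% lower among all genes. LdNA_30629, among the highest of the egg genes, measured 4.16, 18.0 and 10.5 TPM in L4 hindgut, against 0.413 and 0 TPM in the female and 0, 2.95 and 1.70 TPM in the male libraries of adult hindgut (log2 difference 2.60, SE 0.59, limma adjusted p = 0.0291). LdNA_7934 (chromosome 4, 11784186 to 11794364) measured 4.10, 9.76 and 2.39 TPM in L4 hindgut and 0 in all 5 adult libraries, which is at least 14.3-fold higher when 3 read pairs per library, 0.380 TPM, are taken as the floor. Its highest dissected mean was 18.5 TPM, in adult fat body. LdNA_21598 averaged 7.17 ± 7.34 TPM in L4 hindgut and 0.192 ± 0.406 TPM in adult hindgut (SD). Among genes lower in L4, LdNA_12049 averaged 0.284 TPM in L4 hindgut and 7.98 TPM in adult hindgut (log2 difference -2.75, SE 0.35, limma adjusted p = 0.00269), LdNA_16945 averaged 1.46 TPM in L4 hindgut and 11.9 TPM in adult hindgut, and LdNA_25347 averaged 0.490 TPM in L4 hindgut and 6.81 TPM in adult hindgut. The total of 20 calls was 6 without L4 hindgut replicate 4 and 13 without L4 hindgut replicate 5, without female hindgut replicate 1 or without male hindgut replicate 3, and the median difference was -0.017 without L4 hindgut replicate 5. LdNA_30629 and LdNA_21598 each lost the call in 7 other settings.

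The rule did not use a pair of libraries that the authors had removed as outliers. The paper gives contamination at dissection and collection as the likely reason. In female hindgut replicate 5 the 209 genes summed to 119 TPM, against 258 to 411 TPM in the other adult hindgut libraries, and 40 genes were above 1 TPM, against 53 to 73. In yellow L4 fat body replicate 4, 62 genes were above 1 TPM, against 15 to 23 in the white and yellow libraries used, and 5 genes reached 20 TPM. The 310 egg genes also present in tissues moved the same way. They summed to 5155 TPM in female hindgut replicate 5, against 10993 to 13503 TPM in the other adult hindgut libraries. In yellow L4 fat body replicate 4 they summed to 8200 TPM, against 2893 to 4480 TPM in the L4 fat body libraries used. These sums and counts are on deposited TPM, with no rescaled value or share over all genes beside them. In yellow L4 fat body replicate 4 the 10 highest genes took 13.2% of TPM, against 25.7% to 40.9% in the L4 fat body libraries used. All its other genes together thus held a larger share of the library.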

How the data were processed

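The authors trimmed read pairs with Trimmomatic (10 bases from the start, minimum length 36), aligned them with STAR, counted them per gene with featureCounts (Subread 2.0.5) without strand and deposited TPM values with each gene's position, exons and length. The alignment was to a chromosome-level assembly of the species, for which no build name was found in the sources used. Read pairs recovered from TPM and length were whole within 0.01 for 100% of values. No per-sample column was left unmapped. Groups follow the sample titles, from which the tissue field differs in 59 of 61 labels.

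The 209 genes and the comparisons were chosen with earlier results of these data known. Larval stages (1 fit), gonads, hindgut and male tract were compared with limma 3.58.1 in R 4.3.3 on log2(TPM + 1), with moderated variances and an intensity trend. A gene entered a fit if 2 or more of its libraries were above 1 TPM. P-values were adjusted after Benjamini and Hochberg over all genes tested. Differences on this scale understate changes of low genes. In simulated data 200 genes were changed by 2 (log2), drawn only from genes with a mean log2(TPM + 1) above 1. Limma recovered 80% in L3 vs L1, 79% in L2 vs L1 and 83% in L3 vs L2 (11409 genes). It recovered 63.5% in ovaries vs testes (12210), 79.5% in hindgut (11041) and 72% in aedeagus vs genital ducts (10404). False calls numbered 3 to 14. The 209 genes had medians of 0.854, 4.17 and 0.215 TPM in L1, L2 and L3. In the tissues compared their medians were 0.131 to 0.344 TPM, so these recovery shares need not hold for them. Named genes are the 12 highest in eggs, the 3 highest in L1 and in ovaries, the 3 largest called differences each way per comparison, the members of 3 runs, the 3 highest and lowest coefficients of variation in eggs, and the genes next to each threshold. Alternatives covered the pseudocount, filters, scaling, a replicate block, group medians, thresholds and each library left out. Python 3.11.15, numpy 2.4.6, pandas 2.3.3 and matplotlib 3.10.9 were used.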

Additional observations from a re-analysis of the deposited data

Results flagged for a closer look

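Among the adult hindgut libraries, male hindgut replicate 4 stood apart, with a summed level of 411 TPM over the 209 egg genes, against 258 to 275 TPM in the other 4. Of 8 such values tested in 4 groups this was the only one set apart from its replicates, and chance alone sets apart about 5% of groups. The call depends on the scale: after median-of-ratios rescaling, with a factor of 1.73 for this library and 1.26 to 1.41 for the others, the sums were 238 and 183 to 208, which does not set it apart. In this library 75 of the 173 genes detected in adult hindgut were above all 4 others (43.4%), against 55.2% of the detected genes with an egg mean of at least 20 TPM and 42.5% of all 14195 detected genes. After rescaling these shares were 34.7%, 26.0% and 23.5%, and the rescaling was chosen after seeing the data. LdNA_14017 measured 30.0 TPM there, against 5.41 to 13.3 TPM in the others, and LdNA_24470 measured 10.2 TPM, against 0.

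The yellow L4 fat body replicate 4, which enters no comparison, had a summed level of 626 TPM over the 209 genes, against 58.3 to 130.0 TPM in the L4 fat body libraries used. The 310 egg genes also present in tissues summed to 8200 TPM in this library, against 2893 to 4480 TPM. The sums were not rescaled, and the 10 highest genes took 13.2% of TPM in this library, against 25.7% to 40.9%. Among the 209 genes the highest in it was LdNA_30827, with 82.8 TPM against 0.141 to 0.268 TPM. The genes LdNA_19968 (45.5 TPM) and LdNA_29873 (38.0 TPM) followed.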

How the results depend on the processing

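The number of genes meeting the rule was 147 to 263 over 21 other settings, all within 1.5 times of 209. The summed egg level of 93363 TPM moved beyond the spread of the eggs in 1 of 4 settings, to 60845 after rescaling. With a filter of TPM above 5 the genes called numbered 33 in L3 vs L1, 14 in ovaries vs testes, 9 in L4 vs adult hindgut and 19 in aedeagus vs genital ducts, because fewer genes were tested. With a replicate block, calls numbered 32 in L2 vs L1, 4 in L4 vs adult hindgut and 15 in aedeagus vs genital ducts, against 78, 20 and 38 without it, and the cause was not tested. The block gave 16 higher and 16 lower in L2 vs L1, against 50 and 28, and 1 higher and 3 lower in hindgut, against 12 and 8. Same-numbered libraries did not all deviate together (correlations of -0.055 to 0.037 in larvae, 0.0014 to 0.091 in gonads, -0.14 to 0.18 in hindgut, and -0.051 and 0.39 in the male tract), the male tract has 2 such pairs, and the labels name no shared origin, so the numbers were not taken as a pairing. Leaving out 1 library at a time gave 181 to 236 genes meeting the rule, egg sums of 82857 to 106851 TPM, and 45 to 71 calls in L3 vs L1, 52 to 88 in L2 vs L1, 73 to 99 in L3 vs L2, 47 to 60 in ovaries vs testes, 6 to 24 in hindgut and 22 to 34 in the male tract. The rescaled egg means, counts per egg library and sums per group, and the larval counts combined without L2 replicate 4, were chosen after seeing the data. Of 32 named differences, 26 kept their call in every setting run, 6 lost it in some, and 0 turned. Depth limits statements on levels below about 0.5 TPM, and the number of egg pools limits all statements on egg levels.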
